A study of Mus musculus with 8 samples.

Results

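The SIBLING genes (small integrin-binding ligand, N-linked glycoproteins) are *Dspp*, *Dmp1*, *Ibsp*, *Spp1* and *Mepe*, which encode the acidic secreted proteins of dentin and bone matrix. They were taken by name from the table of RNA-seq values. All 5 were found among its 20926 genes. RNA was measured in the mesenchyme of molars from C57BL/6 mice at postnatal day 3, taken after the dental epithelium was dissected away. The 4 control libraries came from *Ezh2fl/fl* mice without Cre, and the 4 libraries named *Osr2-Ezh2cko* came from *Osr2KI-Cre;Ezh2fl/fl* mice, so that both groups carried the floxed *Ezh2* alleles and the Cre knock-in was carried by one. Cre driven from the *Osr2* locus recombines in tooth mesenchyme and in the bone of the socket, and epithelial cells keep their floxed alleles. Mice were used regardless of sex, and the paper describes the background as mixed where the labels give C57BL/6.

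SIBLING proteins are extracellular, highly acidic and heavily phosphorylated, and most carry an RGD motif that integrins bind. They bind calcium and collagen, and they promote or restrain the growth of mineral depending on how they are cleaved and phosphorylated. Dentin sialophosphoprotein (*Dspp*) is the defining product of odontoblasts, the cells that lay down dentin. Bone sialoprotein (*Ibsp*) marks osteoblasts, cementoblasts and mineralizing cartilage. Osteopontin (*Spp1*) is made by bone cells, osteoclasts and macrophages.

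The values in the table are normalised read values with no gene-length factor. Library depth was estimated at 48300000 to 68800000 reads, and 1 read corresponded to a value of 0.0129 to 0.019. *Ezh2* values were 38.3 to 55.0 in control and 23.2 to 36.0 in *Osr2-Ezh2cko* libraries (adjusted p = 0.235 from limma). The groups did not overlap (exact permutation p = 0.0286), and RNA counted to the gene remained in all 4 *Osr2-Ezh2cko* libraries. A value for the whole gene does not show whether the floxed exons were removed. By immunofluorescence the paper could not detect Ezh2 protein in the molar mesenchyme of newborn mutants. The Y-linked gene *Ddx3y* was at most 0.0455 in *Osr2-Ezh2cko* libraries 2 and 3 and at least 31.2 in the other 6. *Xist*, the RNA of the inactive X chromosome, was at most 0.414 in control library 2 and *Osr2-Ezh2cko* library 1, and at least 401 in the other 6, so that control libraries 1, 3 and 4 and *Osr2-Ezh2cko* library 4 held both transcripts. Enamel transcripts of ameloblasts, an epithelial cell type, were present in every library in spite of the dissection, and the sum of 7 ameloblast markers ranged from 811 to 28715 in control and from 738 to 11512 in *Osr2-Ezh2cko* libraries. All 10 odontoblast markers passed the filter on low values. Each fold change is given as *Osr2-Ezh2cko* minus control on the log2(value + 1) scale, which understates the change of low genes. The contrast was tested with limma over 14854 genes, with p-values adjusted by the Benjamini-Hochberg method.

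The 5 genes lie side by side on the plus strand of chromosome 5 (mm10), within 270 kb. In GENCODE, *Dspp* spans 104170712 to 104180127, *Dmp1* 104202613 to 104214102, *Ibsp* 104299171 to 104311469, *Mepe* 104325329 to 104338611 and *Spp1* 104435118 to 104441050. *Dspp*, *Dmp1*, *Ibsp* and *Mepe* overlap no other annotated gene. *Spp1* overlaps *Gm42793* on the same strand, whose value was at most 0.360 in any library.

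The 250 bases before the RefSeq start (GRCm38.p6) are shown for *Ibsp*, the member that changed, and for *Dmp1* and *Spp1* of the same cluster. Sequences were found for 4 of the 5 genes. Capitals mark 3 motifs searched on both strands: the RUNX core (ACCACA or TGTGGT), the CCAAT box (CCAAT or ATTGG) and a half-site of the cyclic AMP response element (TGACGT or ACGTCA). The RefSeq start of *Ibsp* lies 116 bases past the GENCODE start.
Ibsp, chr5:104299037-104299286, plus strand: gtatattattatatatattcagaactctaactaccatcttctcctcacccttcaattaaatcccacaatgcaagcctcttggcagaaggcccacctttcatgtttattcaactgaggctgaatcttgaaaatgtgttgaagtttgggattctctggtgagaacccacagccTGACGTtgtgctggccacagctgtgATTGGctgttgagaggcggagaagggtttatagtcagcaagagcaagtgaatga
Dmp1, chr5:104202367-104202616, plus strand: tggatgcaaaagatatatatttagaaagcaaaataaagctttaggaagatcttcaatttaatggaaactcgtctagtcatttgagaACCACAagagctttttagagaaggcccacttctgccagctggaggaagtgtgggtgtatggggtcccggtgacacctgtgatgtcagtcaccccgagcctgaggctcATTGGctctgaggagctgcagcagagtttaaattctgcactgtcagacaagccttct
Spp1, chr5:104434861-104435110, plus strand: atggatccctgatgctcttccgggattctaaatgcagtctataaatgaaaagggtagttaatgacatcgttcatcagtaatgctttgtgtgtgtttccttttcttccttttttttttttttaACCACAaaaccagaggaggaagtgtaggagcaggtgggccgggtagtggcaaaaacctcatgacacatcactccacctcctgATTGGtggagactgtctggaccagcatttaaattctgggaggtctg
A CCAAT box in reverse orientation began 54 bases before the start of *Ibsp*, 57 before that of *Dmp1* and 46 before that of *Spp1*. The box, in either orientation, was present in 33.8% of all 32851 windows of this length. The RUNX core was present in the *Dmp1* and *Spp1* windows and in 4614 of all 32851 windows, and it was not found in these letters in the *Ibsp* window. The half-site TGACGT was present in the *Ibsp* window, 79 bases before the start, and in 6.47% of all windows. The window of *Mepe*, whose RNA was near the limit of detection and whose sequence is not printed, held the RUNX core at 118 and 80 bases and a reverse CCAAT box at 21 bases before the start. These are matches of letters only.

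*Ibsp* was the member that rose. Control libraries 1 to 4 had *Ibsp* values of 82.1, 141, 119 and 114, against 498, 331, 396 and 437 in *Osr2-Ezh2cko* libraries 1 to 4. The lowest *Osr2-Ezh2cko* library lay above the highest control library by more than the whole range of the controls. Mean values were 114 ± 24.3 and 416 ± 70.5 (SD, n = 4 each), and on the log scale the rise was 3.65-fold (95% interval 2.80 to 4.76). As log2 this was 1.87 with a standard error of 0.17 (adjusted p = 0.00126 by limma), the 8th largest rise among the 14854 genes tested. The two-sided exact permutation test gave p = 0.0286, the lowest value possible with 70 arrangements of the libraries. The labels do not say whether libraries came from separate mice, so p-values measure the spread between these samples. In bulk tissue, a change in the number of cells of a type and a change in RNA per cell cannot be told apart. Each value rested on at least 4723 estimated reads.

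**Figure D1:**
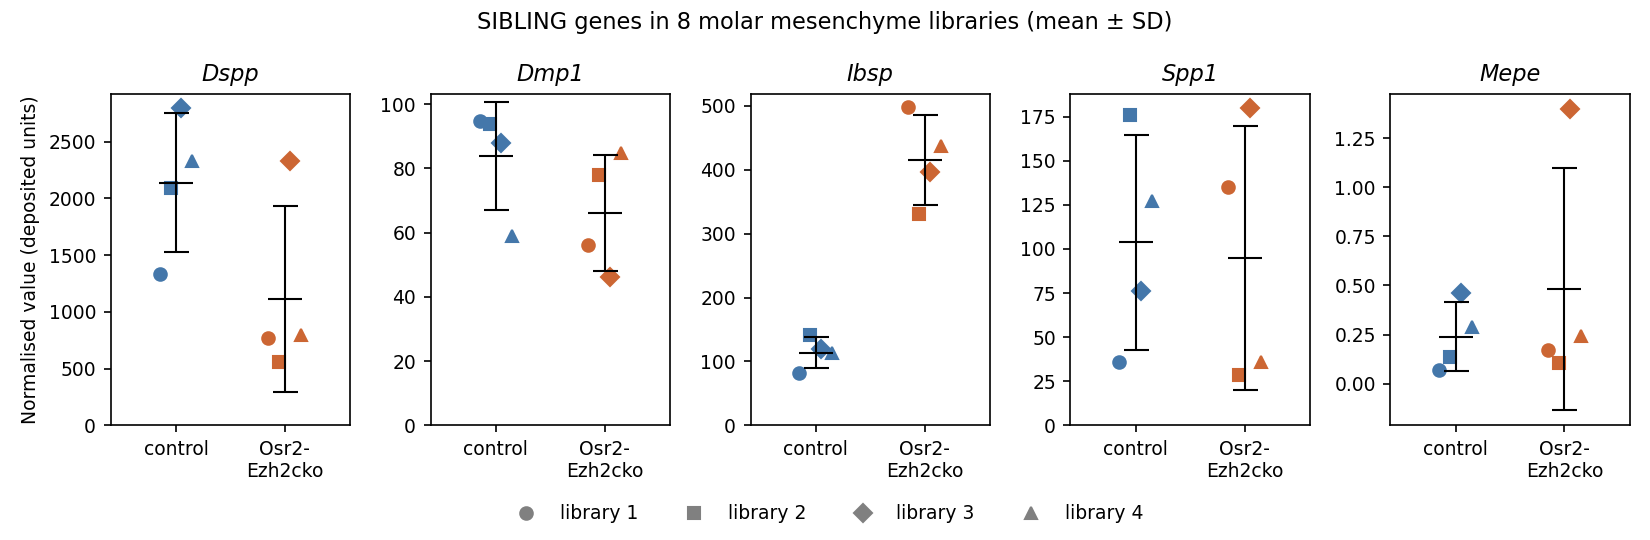
Normalised values of the 5 SIBLING genes in each library (linear axes from 0 except *Mepe*, whose error bar reaches below 0); symbols mark library numbers, which do not pair the groups, and black bars show mean ± SD (n = 4 each). For *Ibsp* the 4 *Osr2-Ezh2cko* libraries (331 to 498) lie above all 4 controls (82.1 to 141), and for the other 4 genes the groups overlap.

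Across all genes tested, 2.07% had an adjusted p under 0.05, 1.56% as higher and 0.512% as lower values in *Osr2-Ezh2cko* libraries. The filter left 4 of the 5 SIBLING genes to test, of which 1, *Ibsp*, was called and none fell. At an unadjusted p under 0.05, 1 member was higher and 1, *Dspp*, lower, where 8.27% and 4.87% of all genes tested were. Groups that did not overlap, with *Osr2-Ezh2cko* above control, were seen in 5.76% of the genes tested and in 1 of the 4 members. The reverse was seen in 2.77% of the genes tested and in no member tested. The median log2 fold change was -0.33 for the 4 SIBLING genes tested and 0.01 for all genes tested.

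*Dspp* was lower in 3 of the 4 *Osr2-Ezh2cko* libraries, and the change did not pass the test. In control libraries 1 to 4 *Dspp* stood at 1329, 2091, 2799 and 2334, and in *Osr2-Ezh2cko* libraries 1 to 4 at 770, 556, 2328 and 799. *Osr2-Ezh2cko* libraries 1, 2 and 4 lay below every control, while library 3 lay within the control range. Mean values were 2138 ± 614 and 1113 ± 817 (SD, n = 4 each). On the log2 scale the difference was -1.13 (SE 0.41, 95% interval -2.04 to -0.21, unadjusted p = 0.0212, adjusted p = 0.256 from limma). The exact permutation test gave p = 0.0857. Without *Osr2-Ezh2cko* library 3 the difference was -1.56 (limma, adjusted p = 0.0269), and 2 SIBLING genes were then called.

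Ameloblast transcripts also varied widely between the libraries. Young ameloblasts are known to transcribe *Dspp* for a short time, besides odontoblasts. The sum of the 7 ameloblast markers was 811, 2429, 15826 and 28715 for controls 1 to 4, against 1351, 871, 11512 and 738 for *Osr2-Ezh2cko* libraries 1 to 4. *Amelx*, the main enamel matrix gene, was at least 316 in every library. Of the 7 markers 6 were tested. All 6 had log2 differences below 0, as *Dspp* did (-2.97 to -0.89, median -1.48), with 2 at an unadjusted p under 0.05, where 13.1% of all genes tested were, and 0 at an adjusted p under 0.05. The 8 dental epithelium markers also all had differences below 0 (median -0.42), with 3 at an unadjusted and 0 at an adjusted p under 0.05, and their sum was 2439 to 5268 in control and 2225 to 3243 in *Osr2-Ezh2cko* libraries. *Osr2-Ezh2cko* library 3, which had the highest *Dspp* value of its group, had by far the highest ameloblast sum of its group, and control library 1, with the lowest *Dspp* value of the controls, the lowest ameloblast sum of the controls. The 8 libraries fell into 3 with sums of 11512 and above and 5 with sums of 2429 and below, so no correlation over all 8 is given. Control library 1, with a sum of 811, had a *Dspp* value of 1329, against 556 to 799 in *Osr2-Ezh2cko* libraries 1, 2 and 4, with sums of 738 to 1351. When the level of 3 enamel transcripts (*Enam*, *Ambn*, *Amelx*) entered the model as a covariate, the *Dspp* difference was -0.62 (adjusted p = 0.326 from limma). The part of ameloblasts in the *Dspp* values was not tested further.

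The other 8 odontoblast markers were read beside *Dspp* and *Dmp1*. Of these 5 had log2 differences below 0, with a median of -0.23 over the 8 and a range from -0.98 for *Phex* to 0.55. An unadjusted p under 0.05 was seen for 3 and an adjusted one for 0. Their sum was 9043 to 10839 in control and 7123 to 10263 in *Osr2-Ezh2cko* libraries, with overlapping groups, and it was lowest in *Osr2-Ezh2cko* library 3. Most of this sum was *Col1a1*, at 6930 to 8735 in control and 5299 to 8245 in *Osr2-Ezh2cko* libraries. *Col1a1* is also made in bone, so the sum is mainly a reading of that gene. The part of odontoblast number in the values of *Dspp* and *Dmp1* was not tested.

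*Dmp1*, which encodes dentin matrix protein 1, a nucleator of mineral made by odontoblasts and osteocytes, overlapped between groups. Controls 1 to 4 read 94.6, 93.8, 87.8 and 59.1 for *Dmp1*, and *Osr2-Ezh2cko* libraries 1 to 4 read 56.1, 77.8, 46.2 and 84.6. Control library 4 was far below the other controls, and the other 3 controls lay above all 4 *Osr2-Ezh2cko* libraries. Mean values were 83.8 ± 16.8 and 66.2 ± 18.0 (SD, n = 4 each), with a log2 difference of -0.35 (SE 0.21, 95% interval -0.83 to 0.12, adjusted p = 0.564 from limma). With the enamel covariate it was -0.60 with an adjusted p of 0.0891. Leaving out control library 4, which had the highest ameloblast sum, gave -0.51 (adjusted p = 0.384).

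*Spp1* showed the widest spread of the 4 members tested, in both groups. For *Spp1*, controls 1 to 4 measured 35.9, 176, 76.0 and 127, while *Osr2-Ezh2cko* libraries 1 to 4 measured 135, 28.7, 180 and 35.8. The highest control value was 4.90 times the lowest, and the highest *Osr2-Ezh2cko* value was 6.27 times the lowest. Means were 104 ± 60.9 and 94.9 ± 74.7 (SD, n = 4 each). Its log2 difference of -0.31 (SE 0.66) had an adjusted p of 0.922 by limma and a 95% interval from -1.79 to 1.16.

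The order of the libraries by *Spp1* was nearly that by the summed level of 10 macrophage and osteoclast markers. Osteoclasts are the bone-resorbing cells of the macrophage lineage. That sum was 246, 871, 341 and 463 for controls 1 to 4, against 548, 226, 773 and 239 for *Osr2-Ezh2cko* libraries 1 to 4. Over the 8 libraries, on the log2(value + 1) scale and with the mean over the 10 markers, Pearson's r was 0.93 (exact permutation p = 0.00176, adjusted p = 0.0352) and Spearman's rho was 0.98 (exact permutation p = 0.000397, adjusted p = 0.0159). The p-values were adjusted over 40 relations, between the 4 SIBLING genes tested and 10 marker lists, chosen after values had been seen. Without the 2 libraries farthest from the median marker level r was 0.94 (n = 6). Among all genes tested, the 3 whose pattern over the 8 libraries was most like that of *Spp1* were *Atp6v0d2* (r = 0.99), a proton pump subunit of osteoclasts, *Acp5* (r = 0.99), which encodes tartrate-resistant acid phosphatase, and *Ctsk* (r = 0.98), the collagen-degrading cathepsin of osteoclasts. *Acp5* ranged from 42.4 to 276 in control and from 31.7 to 240 in *Osr2-Ezh2cko* libraries. *Csf1r*, the receptor gene shared by macrophages and osteoclasts, had a narrower range, from 45.4 to 81.2 and from 55.6 to 63.2. None of the 10 markers had an adjusted p under 0.05 between the groups. The part of these cells in the *Spp1* values was not tested.

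**Figure D2:**
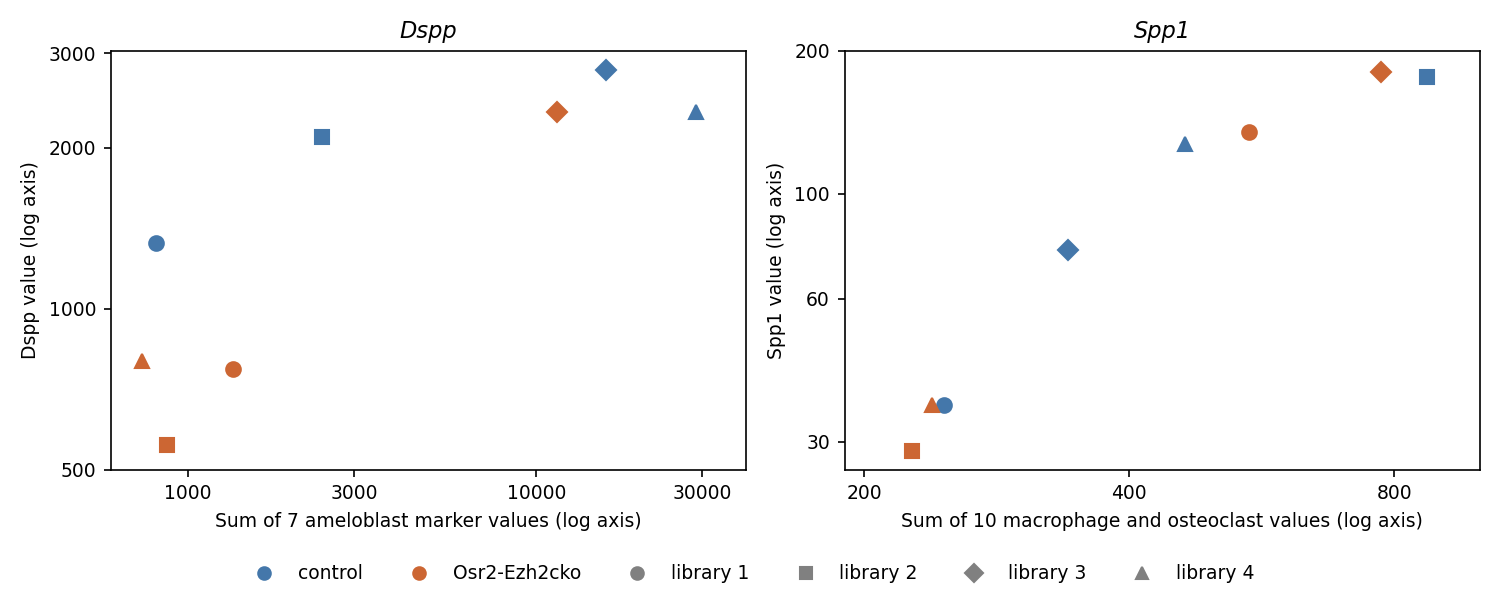
*Dspp* value against the sum of 7 ameloblast markers (left) and *Spp1* value against the sum of 10 macrophage and osteoclast markers (right), 1 point for each of the 8 libraries, both axes logarithmic and in deposited units. *Osr2-Ezh2cko* library 3 is high on both axes in both plots, and the lowest *Spp1* value (28.7) stands at the lowest marker sum (226), while *Spp1* is 180 and 176 at the 2 highest sums (773 and 871).

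*Mepe*, which encodes matrix extracellular phosphoglycoprotein of osteocytes and odontoblasts, was close to the limit of detection. Controls 1 to 4 had *Mepe* values of 0.0695, 0.134, 0.464 and 0.291, or 3 to 26 reads as estimated from the smallest value. *Osr2-Ezh2cko* libraries 1 to 4 had 0.171, 0.106, 1.40 and 0.245, or 6 to 98 such reads. *Osr2-Ezh2cko* library 3 was the single library above 1, so that *Mepe* did not pass the filter and was not among the genes tested. The exact permutation test gave p = 0.714. The difference in mean log2(value + 1) was 0.19 with all libraries and -0.07 without *Osr2-Ezh2cko* library 3.

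Levels were compared between the genes per kb of exon. In control libraries the mean value per kb was 483 ± 139 for *Dspp*, 63.0 ± 37.0 for *Spp1*, 55.1 ± 11.7 for *Ibsp*, 30.3 ± 6.06 for *Dmp1* and 0.142 ± 0.105 for *Mepe* (SD, n = 4 each). *Dspp* lay above the others in every control library, *Spp1* and *Ibsp* did not differ beyond their spread, and *Ibsp* (39.7 to 68.1) lay above *Dmp1* (21.4 to 34.2). In *Osr2-Ezh2cko* libraries the order was *Dspp* (251 ± 184), *Ibsp* (201 ± 34.1), *Spp1* (57.6 ± 45.3), *Dmp1* (23.9 ± 6.53) and *Mepe* (0.286 ± 0.366). There *Dspp* and *Ibsp* overlapped, as did *Spp1* and *Dmp1*. The place of *Dspp* above *Ibsp* rested on library 3 (525 against 192 per kb). In libraries 1, 2 and 4 *Ibsp*, at 241, 160 and 211 per kb, lay above *Dspp*, at 174, 126 and 180 per kb. Without library 3 the means per kb were 160 ± 29.9 for *Dspp* and 204 ± 41.1 for *Ibsp* (SD, n = 3 each). By level per kb, *Ibsp* stood 649th of 20089 genes in control and 173rd in *Osr2-Ezh2cko* libraries, and *Dspp* 55th and 132nd.

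Ratios of deposited values within a library do not depend on how libraries were scaled against each other. The ratio of *Ibsp* to *Dspp* was 0.0425 to 0.0674 in control libraries and 0.170 to 0.647 in *Osr2-Ezh2cko* libraries. For *Ibsp* to *Dmp1* it was 0.868 to 1.93 and 4.25 to 8.88. For *Ibsp* to *Col1a1*, the main collagen chain of dentin and bone, it was 0.0111 to 0.0164 and 0.0401 to 0.0788. In each of these the groups did not overlap. The ratio of *Spp1* to *Ibsp* did overlap, with 0.437 to 1.25 in control and 0.0818 to 0.455 in *Osr2-Ezh2cko* libraries. Whether the fold change of *Ibsp* differed from those of the other members was not tested.

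**Figure D3:**
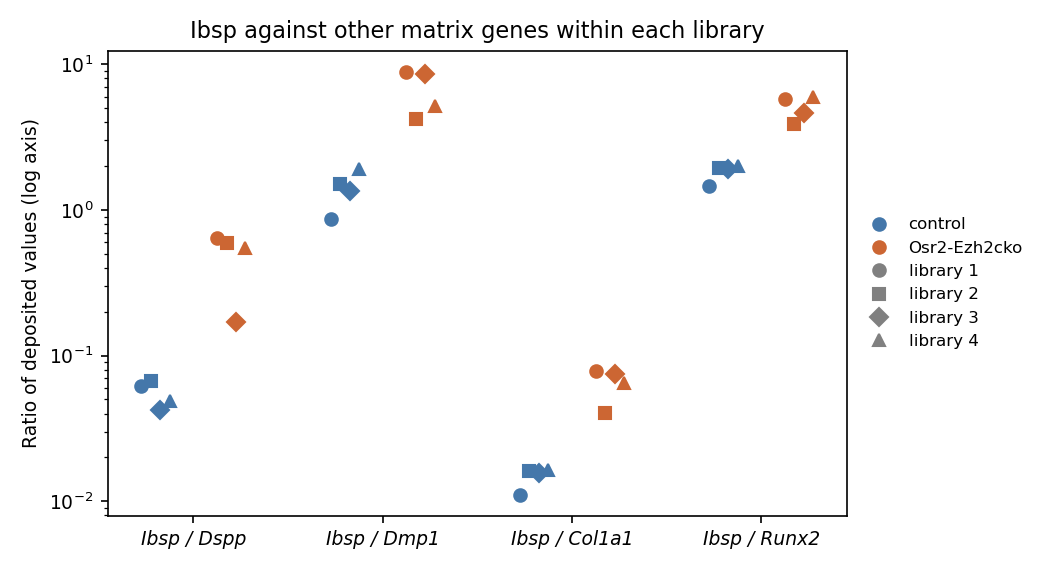
Ratio of the deposited *Ibsp* value to those of *Dspp*, *Dmp1*, *Col1a1* and *Runx2* within each library (log axis; blue, control; orange, *Osr2-Ezh2cko*; symbols mark library numbers). In all 4 ratios every *Osr2-Ezh2cko* library lies above every control, and for *Ibsp* / *Dspp* the *Osr2-Ezh2cko* library nearest to the controls is library 3 (0.170).

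Markers of cells that make bone sialoprotein were read beside *Ibsp*. The sum of the other 8 bone cell markers ranged from 328 to 408 in control and from 353 to 421 in *Osr2-Ezh2cko* libraries, with overlapping groups. Of the 10 on the list, *Ibsp* included, 9 were tested. By adjusted p 2 rose and 0 fell, with 4 at an unadjusted p under 0.05, and 5 had differences below 0. *Sost*, named after its values were seen, was 0.581 to 0.791 in control and 1.17 to 3.92 in *Osr2-Ezh2cko* libraries. Its log2 fold change was 0.82 (adjusted p = 0.125 from limma), and it passed the filter through *Osr2-Ezh2cko* libraries alone. Values this low add little to the sum. The osteoblast membrane gene *Ifitm5* had a log2 fold change of 0.51 (adjusted p = 0.276) and *Bglap*, which encodes osteocalcin, one of -0.40 (adjusted p = 0.745). Of 6 cartilage markers, 5 were in the table and 4 were tested, and 2 rose: *Acan*, which encodes aggrecan (log2 fold change 1.73, adjusted p = 0.0101), and *Col2a1*, the chain of cartilage collagen (1.36, adjusted p = 0.0235). *Acan* was called whichever library was left out, and *Col2a1* in 3 of those 8 fits (adjusted p up to 0.0871). The sum of the 5 cartilage markers was 225 to 323 in control and 253 to 399 in *Osr2-Ezh2cko* libraries. Most of it was *Hapln1* (154 to 238 and 154 to 272), which was not called (log2 fold change 0.22, adjusted p = 0.754), nor was *Sox9* (0.18, adjusted p = 0.473). *Acan* was 2.01 to 3.58 in control and 6.35 to 16.9 in *Osr2-Ezh2cko* libraries. *Col2a1* was 7.74 to 13.5 and 16.7 to 35.9, so both were a small part of the sum. *Col10a1*, the collagen of hypertrophic cartilage, was below the filter, at 0.499 to 0.612 in control and 0.398 to 0.758 in *Osr2-Ezh2cko* libraries. The sum of 5 endothelium markers did separate the groups, at 317 to 356 in control and 279 to 303 in *Osr2-Ezh2cko* libraries. All 5 had log2 differences below 0 (median -0.24), with 3 at an unadjusted p under 0.05 and 0 at an adjusted one. The part of bone, cartilage or endothelial cells in the *Ibsp* values was not tested.

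Regulators of odontoblasts and osteoblasts, which were transcriptional regulators and the secreted factors *Bmp2* and *Bmp4*, were counted next. Of 18 tested, 2 rose and 0 fell by adjusted p, and 7 had an unadjusted p under 0.05. *Vdr*, which encodes the vitamin D receptor, had values of 86.1 to 106 in control and 137 to 160 in *Osr2-Ezh2cko* libraries, a log2 rise of 0.62 (SE 0.08, adjusted p = 0.00709). The groups did not overlap, and it was called whichever library was left out. *Runx2*, the master regulator of osteoblasts, named after its value was seen, had a log2 fold change of 0.41 with an adjusted p of 0.0678, and *Sp7*, which acts downstream of it, one of 0.03. The median over the 18 genes was 0.05.

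Among 12 genes that phosphorylate or cleave SIBLING proteins, 10 were in the table and 9 were tested. None was called by limma, 5 had an unadjusted p under 0.05, and the median log2 fold change was -0.46. The smallest p-values belonged to *Fam20a*, a partner of the kinase that phosphorylates secreted matrix proteins (log2 fold change -1.09, adjusted p = 0.0751), and *Tll1*, a protease related to Bmp1 (-0.46, adjusted p = 0.080). *Fam20c*, the kinase itself, and *Phex*, an endopeptidase that cleaves SIBLING peptides, were named after their values were seen, with log2 fold changes of -0.78 (adjusted p = 0.122) and -0.98 (adjusted p = 0.1003). *Bmp1*, also at an unadjusted p under 0.05, went the other way (0.22, adjusted p = 0.229 from limma). Of the 9 genes tested, 2 had differences above 0 and 7 below. *Fam20a* values were highest in control library 4 and, among *Osr2-Ezh2cko* libraries, in library 3, the same libraries that had the highest ameloblast sums of their groups. With the enamel covariate *Fam20a* was called (log2 difference -0.73, adjusted p = 0.0105), as it was without *Osr2-Ezh2cko* library 3 (adjusted p = 0.0441) or control library 1 (0.0419). *Mmp20*, an enamel protease, is on both this list and the ameloblast list.

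Among 10 receptor genes for SIBLING proteins (the integrins that bind RGD or related motifs, and *Cd44*), 10 were tested and none was called, with 2 at an unadjusted p under 0.05. *Itga8* had a log2 fold change of 0.62 (adjusted p = 0.157) and *Itgav*, a subunit of the main osteopontin-binding integrins, one of -0.21 (adjusted p = 0.1698). *Itga8* was called without *Osr2-Ezh2cko* library 1 (adjusted p = 0.0404).

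Of 11 genes listed for mineral ions and phosphate, 10 were in the table and 9 were tested, and 1 fell. The list also held genes that do not handle phosphate, such as the mineral inhibitor *Mgp* and the sphingomyelinase *Smpd3*. *Enpp1*, which generates the mineral inhibitor pyrophosphate, read 45.9, 63.1, 61.6 and 37.2 across controls 1 to 4, against 30.6, 27.2, 24.5 and 31.2 in *Osr2-Ezh2cko* libraries 1 to 4. All 4 *Osr2-Ezh2cko* libraries lay below all controls. On the log2 scale it fell by 0.83 (SE 0.16, adjusted p = 0.0386 by limma). The call was lost when any 1 of control libraries 1, 2 and 3 or of the 4 *Osr2-Ezh2cko* libraries was left out (adjusted p up to 0.135). *Alpl*, the phosphatase that removes pyrophosphate, had a log2 fold change of 0.14 (adjusted p = 0.793).

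Among 13 other matrix genes, 12 were tested and 1 was called. *Omd*, which encodes osteomodulin, a proteoglycan of mineralizing matrix, had values of 493 to 603 in control and 1046 to 1394 in *Osr2-Ezh2cko* libraries (a log2 rise of 1.10, SE 0.12, adjusted p = 0.00325 by limma). *Ogn*, which encodes the related proteoglycan osteoglycin and was named after its values were seen, had values of 83.9 to 166 in control and 246 to 479 in *Osr2-Ezh2cko* libraries. Its groups did not overlap, and its log2 difference of 1.19 (SE 0.26) had an adjusted p of 0.0550. *Col1a1*, *Col1a2* and *Sparc*, abundant matrix transcripts of dentin and bone, had log2 fold changes of -0.22, -0.30 and -0.27, with adjusted p-values of 0.726, 0.413 and 0.405.

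**Figure D4:**
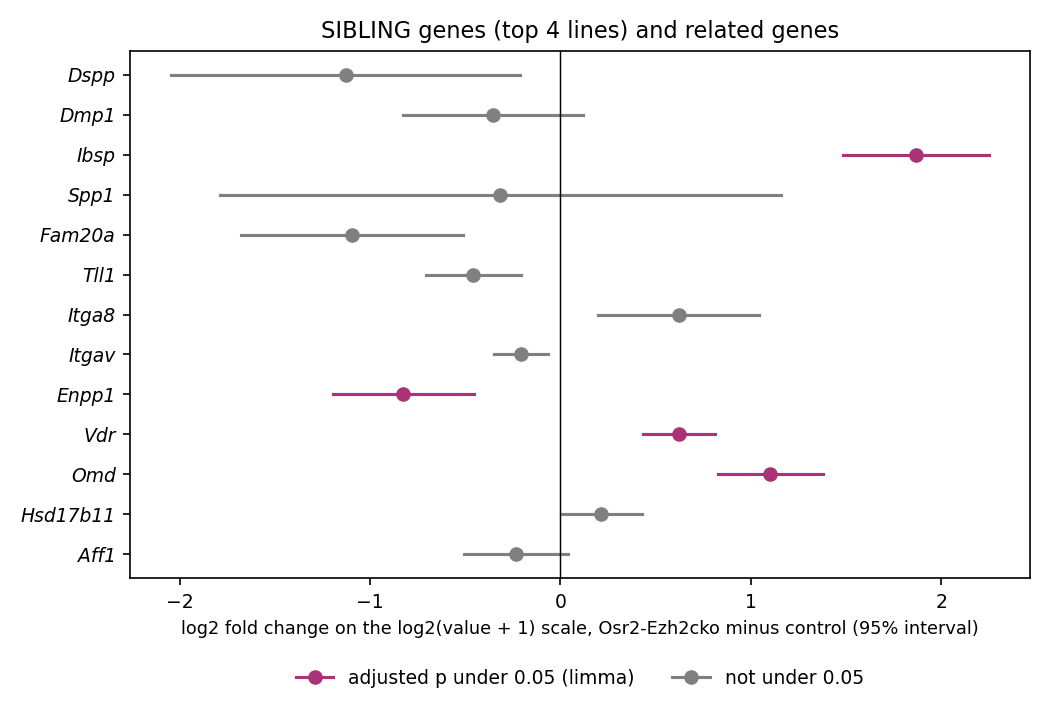
Log2 fold change on the log2(value + 1) scale (*Osr2-Ezh2cko* minus control) with 95% intervals from limma for the 4 SIBLING genes tested and the other genes on the vertical axis; purple marks an adjusted p under 0.05. *Ibsp* (1.87) and *Omd* (1.10) lie farthest to the right of the genes plotted, and the interval of *Spp1* (-1.79 to 1.16) is the widest.

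The chromosomal neighbours of *Ibsp* were read for the same contrast. Of 9 genes listed as neighbours, 8 were tested, of which 7 lie on chromosome 5 and *Abcg2* on chromosome 6 in mm10. None of the 8 was called by limma, with *Hsd17b11* (log2 fold change 0.22, adjusted p = 0.361) and *Aff1* (-0.23, adjusted p = 0.482) at the smallest p-values. Within 300 kb of the cluster 8 genes other than the SIBLING genes were tested. Their log2 fold changes ran from -0.81 for *Gm17660* (adjusted p = 0.0655) to 0.22, and none passed the test. *Sparcl1*, which flanks *Dspp* and belongs to the gene family from which the SIBLING genes arose, had a log2 fold change of 0.06 (adjusted p = 0.928).

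**Figure D5:**
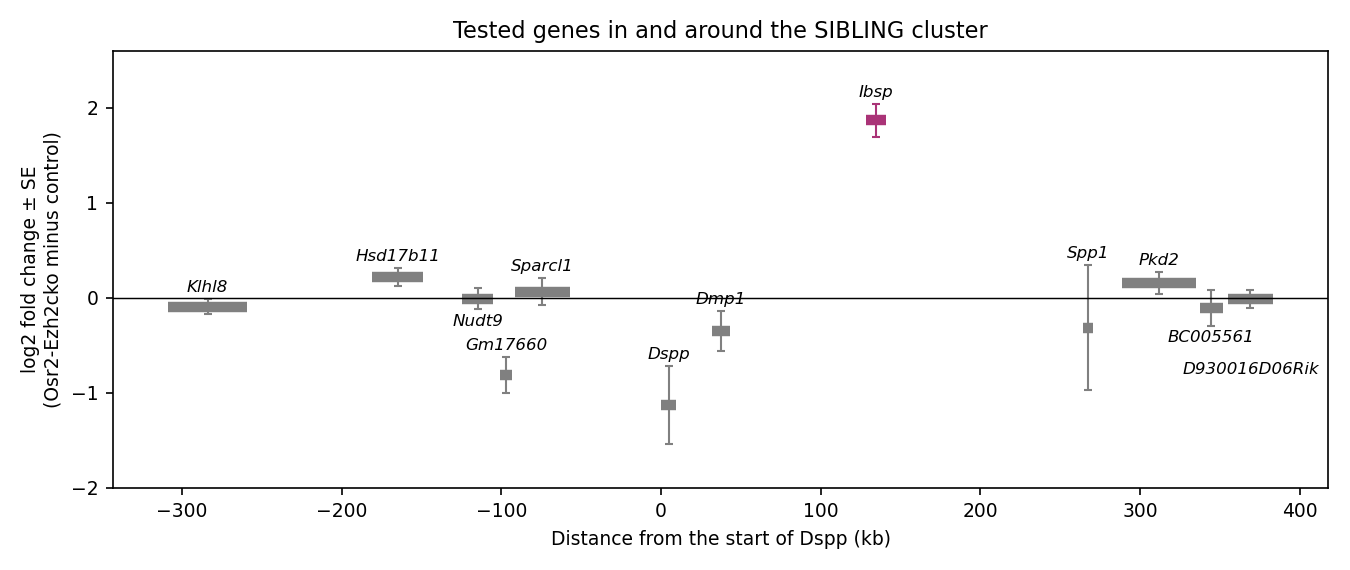
Tested genes in and around the SIBLING cluster, drawn to scale as bars at their distance from the start of *Dspp* (kb) and at their log2 fold change ± standard error (*Osr2-Ezh2cko* minus control); purple marks an adjusted p under 0.05 from limma. *Ibsp* stands at 1.87, while the 8 genes outside the family lie between -0.81 and 0.22.

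For the other members the most similar genes were also sought over the 8 libraries, as a description of these libraries. *Ibsp* was most like *2610316D01Rik* (r = 0.98), *Azin2* (r = 0.98) and *Gm42517* (r = 0.98). *Dspp* was most like *Lyrm9* (r = 0.98), *Clcn3* (r = 0.98) and *Ptpn3* (r = 0.97). *Dmp1* was most like *Gm20547* (r = 0.99), *Rad21* (r = 0.99) and *Slc27a6* (r = 0.98), and *Mepe* like *Gm43110* (r = 0.98), *Intu* (r = 0.98) and *Fndc3a* (r = 0.97). The genes were picked for the highest r among all genes tested, so no p is given.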

How the data were processed

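RNA-seq values of 8 libraries were analysed, 4 per group. The paper's methods give 4 samples per group but 3 pairs for sequencing, and all 8 deposited libraries were used. The paper's methods describe trimming, TopHat alignment to mm10 and RPKM, while the submitters' processing notes list CASAVA 1.8.2, STAR 2.5.3a and Partek. The unit of the deposited values was taken to be a normalised signal: they hold no length factor, and among values below 20 times the smallest of a library 61.2% were whole multiples (tolerance 0.01). Estimated reads are the value divided by that smallest value, minus 1, and carry counting error only.

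The 14854 genes that reached 1 in 4 or more libraries were tested with limma 3.58.1 in R 4.3.3 (trended eBayes, log2(value + 1)), which was tested on simulated data. Single genes were also tested by exact permutation over 70 arrangements. The members and gene lists were chosen with earlier results of these data known. Named are the members, the genes of each list with an adjusted p under 0.05 (or, where there is none, the 2 with the smallest p), and the 3 genes most like each member by Pearson's r. One gene that the rule names is not reported here. Others are marked, or are cell type markers or abundant list members given as reference. GENCODE M21 (GRCm38) gave positions and exon lengths, and its gene starts equalled those in the table for 18595 of 20089 matched names. Alternatives were pseudocounts, filters, scalings, models, the replicate block, covariates and leaving out each library. The *Xist* covariate was added after the data were seen.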

Additional observations from a re-analysis of the deposited data

Results flagged for a closer look

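On the log2(value + 1) scale, 2 of the 30 groups of 4 libraries examined held a library set apart by a gap close to the whole range of its group, where chance gives about 1.5. *Dmp1* in control library 4 stood at 59.1, and controls 1 to 3 stood at 87.8 to 94.6. *Mepe* was 1.40 in *Osr2-Ezh2cko* library 3 against 0.106 to 0.245 in the other libraries of its group.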

How the results depend on the processing

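*Ibsp* kept its direction and its call under all 21 alternatives, with log2 fold changes of 1.72 to 1.98 and adjusted p-values of 0.00193 to 0.00738 when each library was left out, an adjusted p of 0.0222 with the replicate block and a log2 fold change of 1.90 with the *Xist* covariate. *Dmp1* was not called under any alternative (-0.51 to -0.20 with each library left out). *Dspp* ranged from -1.56 to -0.87 with each library left out, and was called without *Osr2-Ezh2cko* library 3 and with array weights (-1.50). *Spp1* ranged from -0.76 to 0.11 with each library left out. It was above 0 without control library 2 (0.013), *Osr2-Ezh2cko* library 2 (0.11) or library 4 (0.0089), and with the enamel covariate (0.32), and it was called at -1.40 with array weights. *Mepe*, for which a fit was possible only without the filter, ranged from -0.07 to 0.30 with each library left out, below 0 (-0.069) without *Osr2-Ezh2cko* library 3. Array weights put a weight of 9.66 on *Osr2-Ezh2cko* library 4 and at most 2.31 on any other library. With them 4040 genes were called, and among the lists 3 SIBLING, 8 processing, 6 receptor, 4 mineral ion, 6 regulator, 6 matrix and 3 neighbouring genes.

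Over all genes 308 were called, 119 with the filter at a value of 10, 73 with the replicate block and 129 to 429 with each library left out: 158, 129 and 175 without control libraries 2, 3 and 4, and 176 and 166 without *Osr2-Ezh2cko* libraries 2 and 4. With each library left out, 1 to 2 SIBLING, 0 to 2 processing, 0 to 1 receptor, 0 to 1 mineral ion and 1 to 3 regulator genes were called, 1 matrix gene and 0 neighbours. Of the processing genes 1 was called with quantile normalization and 2 with the enamel covariate. Matrix calls were 2 with equal sums and 2 with the enamel covariate, and regulator calls 1 with the enamel covariate. With the replicate block 0 regulators and 0 mineral ion genes were called, so *Vdr* (log2 difference 0.62, adjusted p = 0.0595) and *Enpp1* (-0.83, adjusted p = 0.143) were lost, and with the filter at 10 the mineral ion count was 0. The replicate numbers share only a number: deviations of same-numbered libraries had correlations from -0.43 to 0.22, and for 1 of the 4 numbers the best match was its own. The cause of these changes was not tested. The depth limits *Mepe* alone among the members.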

Other observations

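Of the 40 relations between the 4 SIBLING genes tested and 10 marker lists, *Spp1* also ran with the mean level of 5 Schwann cell markers over the 8 libraries (Pearson's r = 0.94, exact permutation p = 0.00109, adjusted p = 0.0352, and Spearman's rho = 0.86, exact permutation p = 0.0107, adjusted p = 0.107). Without the 2 libraries farthest from the median marker level r was 0.92. *Dmp1* and the mean of the other 8 odontoblast markers had r = 0.85 (exact permutation p = 0.00747, adjusted p = 0.0747) and rho = 0.90 (exact permutation p = 0.00456, adjusted p = 0.0609), and r = 0.93 without the 2 farthest libraries, so this relation did not pass the correction.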
